A study of Arabidopsis thaliana with 2 samples.

Results

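The PRA1 genes of Arabidopsis thaliana, which encode prenylated Rab acceptor proteins of membrane traffic, were read in young leaves of the line BOUNTIFUL and of the wild-type accession Ws-0. A probe set was taken where the annotation assigned it to exactly 1 gene with a symbol starting PRA1 and where the mean of its BOUNTIFUL and Ws-0 signals was at least 39.88 units, the median of that mean over all Arabidopsis probe sets. The signal is the MAS5 brightness of a probe set on a linear scale. Of 22746 Arabidopsis probe sets, 11373 reached the threshold, and 6 of these were PRA1 probe sets, 1 each for PRA1.A1, PRA1.B1, PRA1.B4, PRA1.B6, PRA1.E and PRA1.H. These are 6 of the 5990 genes read by a passing probe set of their own. They were grouped with earlier results of these arrays known, so their differences are given as a description.

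PRA1 proteins are small membrane proteins of the endoplasmic reticulum, Golgi and endosomes. Rab GTPases are switches that carry a lipid anchor and direct vesicles between these compartments, and PRA1 proteins bind them in their prenylated form. The mammalian PRA1 protein is known to help release a Rab GTPase from its dissociation inhibitor, so that it can enter a membrane. Plants have many more PRA1 genes than yeast or mammals, and the Arabidopsis genes are sorted into subfamilies named A to H.

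BOUNTIFUL and Ws-0 were each measured on 1 Affymetrix ATH1 array, to ask which transcripts differ in the tagged line. BOUNTIFUL is a gain-of-function line in the Ws-0 background with an activation tag, Activation Tag I/dSpm, inserted in the gene BOU, and nothing in the labels says that Ws-0 carries an insert. Both RNA samples were total RNA from a mixture of the 4 youngest rosette leaves at developmental stage 6.50, and both sets of plants were raised in a glasshouse on a compost mix, at 23 °C and under days of 16 h light. The labels do not say how many plants were mixed or whether BOUNTIFUL was a single insertion line, and the position of BOU is not given, so its own level is not reported here. With 1 array per genotype every difference below is between a pair of RNA samples. It has no replicate check and no test, and the number of arrays limits its precision. Each log2 ratio is BOUNTIFUL minus Ws-0 of log2(signal + 7.77 units), and folds are on that scale too, where differences of low signals come out smaller than they are. In RNA of whole leaves, fewer cells of a type and less RNA per cell cannot be told apart.

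On the deposited scale no PRA1 gene differed by as much as 2-fold between BOUNTIFUL and Ws-0. The largest differences were those of 2 genes of subfamily B, PRA1.B6 and PRA1.B4, both with more signal in BOUNTIFUL, at 1.78-fold and 1.48-fold. PRA1.E followed at 1.26-fold in the same direction. PRA1.A1, PRA1.H and PRA1.B1 had less signal in BOUNTIFUL, by at most 1.23-fold. Of all passing probe sets, 8.62% were at least 2-fold apart, against 0 of the 6 PRA1 genes.

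PRA1.B6 (AT5G07110) encodes a protein that inhibits the export of some proteins from the endoplasmic reticulum when it is overproduced in Arabidopsis cells. Its signal was 87.3 units in BOUNTIFUL and 45.5 units in Ws-0, a log2 ratio of 0.83. Of the 11373 passing probe sets, 750 had a log2 ratio at least as high, or 6.59%. PRA1.B4 (AT2G38360), of the same subfamily, had a signal of 94.9 units in BOUNTIFUL and 61.4 units in Ws-0, a log2 ratio of 0.57. A log2 ratio at least as high was found for 12.0% of passing probe sets. Differences of this size were thus common on the array.

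PRA1.B1 (AT3G56110), the third measured gene of subfamily B, had nearly the same signal on both arrays, 190 units in BOUNTIFUL and 198 units in Ws-0, a log2 ratio of -0.06. That is the median log2 ratio of all passing probe sets, also -0.06. The 3 measured genes of subfamily B therefore spread over 0.89 on the log2 scale, with a median of 0.57. As a scale for that spread, 33 genes on the array were each read by a pair of passing probe sets. The log2 ratios of such a pair differed by a median of 0.21, and by 0.89 or more for 1 gene of the 33. The pairs show how far probe sets for a single gene part on these arrays, and they do not measure the spread between plants. A range over 3 genes tends to be wider than the difference of a pair, and the pairs were not matched to these genes in signal. The scale is therefore a rough one.

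PRA1.E (AT1G08770), the only gene of its subfamily, had 154 units in BOUNTIFUL and 120 units in Ws-0, a log2 ratio of 0.34. PRA1.A1 (AT5G02040) had the lowest log2 ratio of the 6, -0.30, with 144 units in BOUNTIFUL and 179 units in Ws-0. PRA1.H (AT4G27540), also the only gene of its subfamily, had 54.3 units against 62.4, a log2 ratio of -0.18. By subfamily letter, B (by its median) and E lay above 0 on the deposited scale and A and H below it, while all lay above 0 with hybridisation spikes made equal, and A, E and H were each represented by 1 gene. A log2 ratio at least as far from 0 as that of PRA1.A1 was found for 52.7% of passing probe sets, and for PRA1.E the share was 47.7%, so these differences were of an ordinary size for this pair of arrays.

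**Figure D1:**
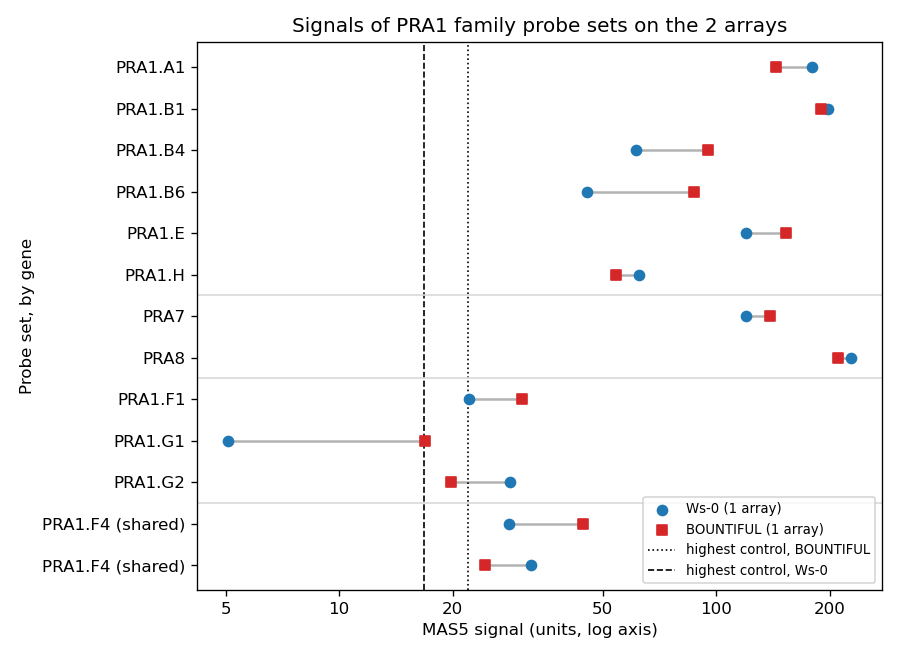
MAS5 signals (units, log axis) of each PRA1 family probe set, with a blue circle for the Ws-0 array and a red square for the BOUNTIFUL array; vertical lines mark the highest signal of the Bacillus subtilis control probe sets on each array, and grey lines part the 6 chosen genes from PRA7 and PRA8, the genes below the signal threshold and the shared probe sets of PRA1.F4. On the log axis the widest gaps among the 6 chosen genes are those of PRA1.B6 (45.5 to 87.3 units) and PRA1.B4 (61.4 to 94.9 units), and PRA1.G1 lies in the range of the controls on both arrays.

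Of the 6 genes 3 had log2 ratios above 0 and 3 below, where 44.9% of all passing probe sets lay above 0. Their median log2 ratio was 0.14, against -0.06 over all passing probe sets. The count above 0 rests on how the arrays are scaled. Hybridisation spikes are transcripts added to the hybridisation mix, and the 9 newer spike probe sets had a mean log2 ratio of -0.35 and the 9 older ones of -0.55. Newer and older probe sets read spikes of the same pair of hybridisations, so they are not independent checks of the scale. With either set made equal on both arrays, all 6 PRA1 genes lay above 0, and so did 72.5% of passing probe sets with the newer spikes and 83.2% with the older.

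PRA1.B6 reached 1.16 with the newer spikes set equal, so that 1 of the 6 genes was at least 2-fold higher, where 9.83% of passing probe sets were. With the older spikes set equal PRA1.B6 reached 1.34 and PRA1.B4 1.08, so that 2 of the 6 were at least 2-fold higher, where 14.6% of passing probe sets were. These scalings moved the median of all passing probe sets to 0.27 and 0.45. On the deposited scale PRA1.B6 stood 0.89 above the median of all passing probe sets and PRA1.A1 0.24 below it. Since 1 factor multiplies every BOUNTIFUL signal, the spike scalings leave these distances and the order of the genes nearly as they are by construction.

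**Figure D2:**
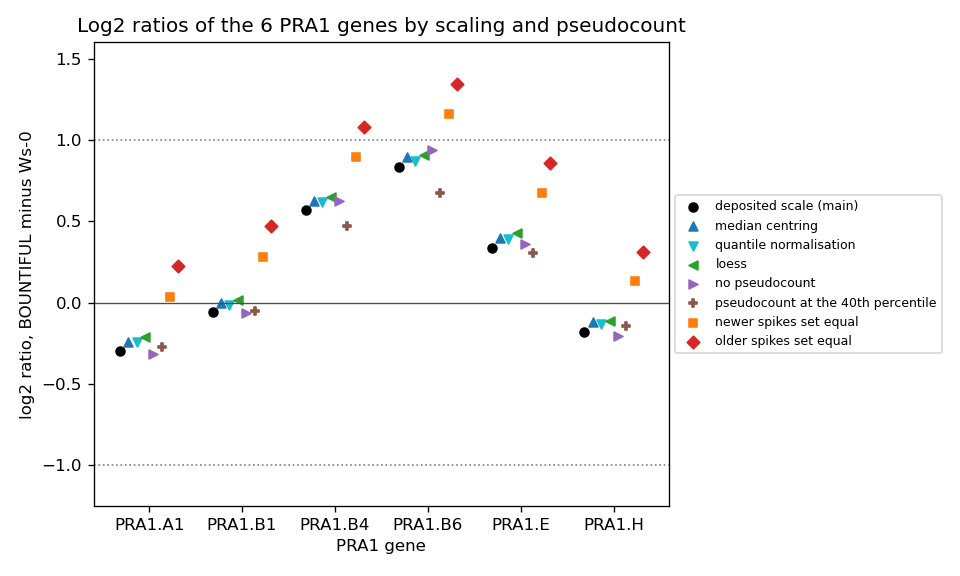
Log2 ratios (BOUNTIFUL minus Ws-0) of the 6 PRA1 genes under the deposited scale and 7 other scalings or pseudocounts, 1 point per setting, with dotted lines at a 2-fold difference. PRA1.B4, PRA1.B6 and PRA1.E lie above 0 in every setting drawn, PRA1.A1 and PRA1.H lie above 0 only with a set of spikes made equal, and PRA1.B1 stays within 0.1 of 0 except with spikes made equal, where it reaches 0.28 and 0.47.

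The log2 ratios of the PRA1 genes ran from -0.30 to 0.83, and the SD over all passing probe sets was 0.62. The share of passing probe sets at least as far from 0 ran from 12.8% for PRA1.B6 to 90.1% for PRA1.B1. None of the 6 probe sets bears a suffix that marks possible cross-hybridisation, and all 6 had signals above the 27 Bacillus subtilis control probe sets, which reached 21.9 units in BOUNTIFUL and 16.7 units in Ws-0.

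**Figure D3:**
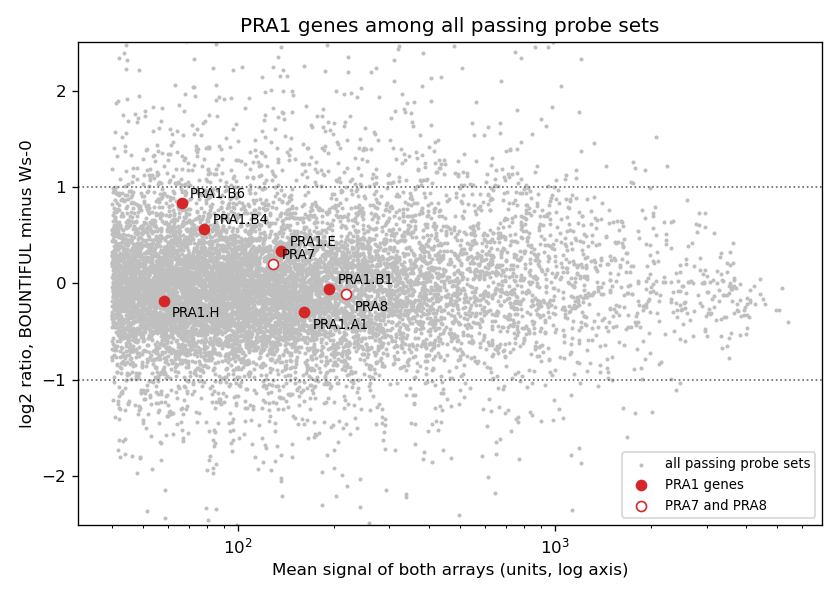
Log2 ratio (BOUNTIFUL minus Ws-0) against the mean signal of both arrays (units, log axis) for the 11373 passing probe sets in grey, of which 71 lie beyond the axis at a log2 ratio of 2.5, with the 6 PRA1 genes in filled red, PRA7 and PRA8 in open red and dotted lines at a 2-fold difference. All 8 lie between the dotted lines, from -0.30 for PRA1.A1 to 0.83 for PRA1.B6.

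The rest of the family was examined to see what the choice left out. The gene table lists 19 PRA1 genes, of which 11 had a probe set of their own here. PRA7 and PRA8 are listed as PRA1.F2 and PRA1.F3 and were left out only by the letters of their symbols. PRA7 (AT1G55190) had 139 units in BOUNTIFUL and 120 units in Ws-0, a log2 ratio of 0.20. PRA8 (AT3G13720) had 211 units against 228, a log2 ratio of -0.11. With these included, 4 of 8 genes lay above 0 and the median log2 ratio was 0.07.

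A further 3 genes had a probe set below the threshold. PRA1.F1 (AT1G17700) came nearest to it with a mean signal of 26.3 units, while PRA1.H, with 58.3 units, was the gene just above it. PRA1.F1 had 30.6 units in BOUNTIFUL and 22.1 units in Ws-0. PRA1.G2 (AT5G56230) had 19.8 units against 28.4, and its BOUNTIFUL signal lay in the range of the controls. PRA1.G1 (AT1G55640) had 16.9 units against 5.08 and lay in that range on both arrays, so no difference can be read for it.

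PRA1.F4 (AT3G13710) encodes a protein known to act in protein exit from the Golgi apparatus. The annotation shares 2 probe sets between it and AT3G13700, and their log2 ratios differed in sign. Both lay below the threshold, with mean signals of 36.4 and 28.3 units. One had 44.4 units in BOUNTIFUL and 28.3 units in Ws-0, a log2 ratio of 0.53, and the other had 24.4 against 32.3, a log2 ratio of -0.32. The gap of 0.85 between probe sets assigned to the same genes is about as wide as the difference of PRA1.B6 between the arrays, at lower signals. How far each probe set reads PRA1.F4 or AT3G13700 is not known. The gap therefore need not be a disagreement over a single gene. PRA1.A2, PRA1.A3, PRA1.B2, PRA1.B3, PRA1.B5, PRA1.C and MPI7, which is listed as PRA1.D, were not analysed here.

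Genes of other steps of membrane traffic were set beside the PRA1 genes, to show whether those steps differed too. The 7 lists held 38 named probe sets, of which 28 passed the threshold, for 28 genes. On the deposited scale none of these 28 genes was at least 2-fold apart, 9 had log2 ratios above 0 and 19 below, and the median was -0.16. Of all passing probe sets, 8.62% were at least 2-fold apart and 44.9% lay above 0 on that scale. The list counts rest on the threshold. The list probe sets below it all lay above 0, except that of ATYKT62 (-0.18). ARLA1B (34.0 units in BOUNTIFUL against 5.26 in Ws-0) and VPS2.2 (33.7 against 2.45) were over 2-fold apart. The Ws-0 signal of both lay in the range of the controls. With the newer spikes set equal 23 of the 28 genes lay above 0, and with the older 27. Most of the array did too, at 72.5% of passing probe sets with the newer spikes and 83.2% with the older. The 28 genes include 2 genes of Rab GTPases, the class of protein that PRA1 proteins bind. These are the only Rab genes that were matched by symbol or synonym. The annotation gave no gene for 8730 of the 22746 probe sets, so the class is only sampled here. The endosomal Rab gene ARA6 had 251 units in BOUNTIFUL and 295 units in Ws-0, a log2 ratio of -0.22. The Golgi Rab gene RAB6A had 183 units against 189, a log2 ratio of -0.04. ATSTE24, a protease gene of prenyl protein maturation, had a log2 ratio of -0.07. All 3 were closer to 0 than PRA1.B4, PRA1.B6, PRA1.E and PRA1.A1 (-0.30) on the deposited scale. The other PRA1 genes went the other way in part. PRA1.H (-0.18) was closer to 0 than ARA6, and PRA1.B1 (-0.06) was closer than ARA6 and ATSTE24.

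Among the 3 SNARE genes, whose products fuse vesicles with membranes, SEC22 of traffic between endoplasmic reticulum and Golgi had the highest log2 ratio, 0.48, with 415 units against 295. SEC22 passed a 2-fold difference only with the older spikes set equal (1.02). AtSec20 and YKT61 were each at 0.02 on the deposited scale. The 4 genes of Arf GTPases and vesicle coats ran from -0.30 for AT3G63460, listed as the COPII coat gene SEC31B, to 0.33 for the Arf-like gene ARLA1C, with a median of -0.16 that lay above 0 with no filter and with either set of spikes made equal. The 5 genes of the exocyst, which tethers vesicles to the plasma membrane, had a median of -0.02 on the deposited scale, which was above 0 with median centring, quantile normalisation, loess, no filter and either set of spikes made equal. SEC5A was the lowest of them, with 140 units in BOUNTIFUL and 259 units in Ws-0, a log2 ratio of -0.85, and SEC6 was the highest at 0.20.

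Of 12 genes for vacuolar sorting and the ESCRT complexes, which sort membrane proteins into vesicles inside endosomes, 10 had log2 ratios below 0 on the deposited scale, where 55.1% of all passing probe sets did, and their median was -0.24. None of the 12 reached a 2-fold difference. The probe sets of this list below the threshold all lay above 0, from 0.01 for VPS24.2 to 2.02 for VPS2.2. With no filter the list median was -0.17, against -0.02 over all probe sets. ELC, an ESCRT-I subunit gene, was the lowest at -0.40, and VPS22, an ESCRT-II subunit gene, was the highest at 0.46. With the newer spikes set equal the median of this list was 0.075, so its sign rests on the scaling. That scaling moved the median of all passing probe sets from -0.06 to 0.27, and the list median lay below it on both scales. HVA22C, of a family of endoplasmic reticulum membrane proteins, was the only gene matched by symbol or synonym for shaping of that membrane. It had 90.3 units against 41.9, a log2 ratio of 0.98. It passed a 2-fold difference with median centring (1.04), quantile normalisation (1.01), loess (1.05), no pseudocount (1.11) and either set of spikes made equal (1.31 and 1.49).

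**Figure D4:**
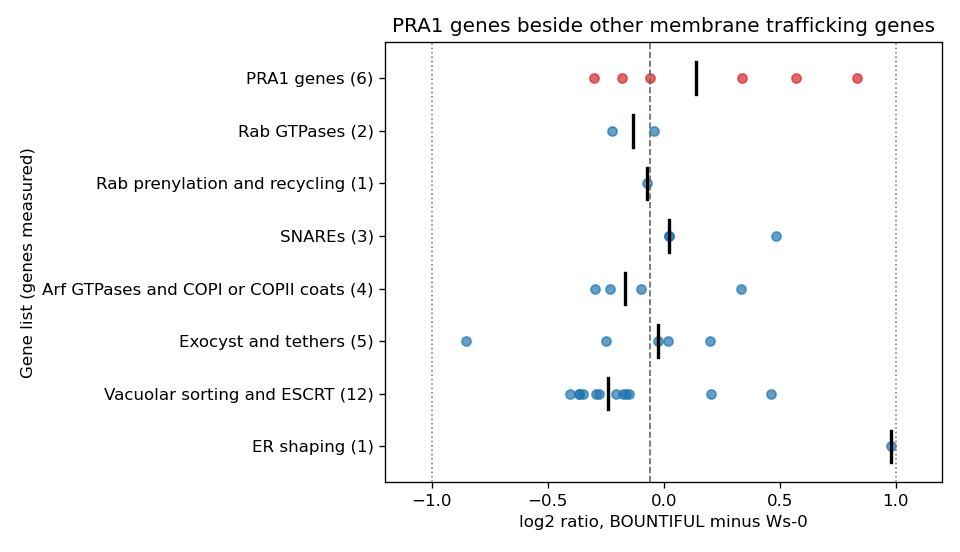
Log2 ratios (BOUNTIFUL minus Ws-0) of the 6 PRA1 genes in red and of 28 genes in 7 other trafficking lists in blue, 1 point per gene, with a black bar at each list's median, a dashed line at the median of all passing probe sets (-0.06) and dotted lines at a 2-fold difference. All points lie between the dotted lines, with PRA1.B6 (0.83) and HVA22C (0.98) at the right and SEC5A (-0.85) at the left.

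The genes next to each PRA1 gene on the chromosome were looked up after the values of the PRA1 genes had been seen. Of the 12 adjacent protein-coding genes, 2 had a named probe set that passed the threshold. AT5G02050, beside PRA1.A1, had 152 units in BOUNTIFUL and 92.6 units in Ws-0, a log2 ratio of 0.67. AT3G56120, beside PRA1.B1, had 50.6 units against 74.9, a log2 ratio of -0.50. No passing neighbour was named for PRA1.B4, PRA1.B6, PRA1.E or PRA1.H.

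The tissue label was checked against marker genes. Of 10 leaf markers, the 6 with a named probe set had signals of 261 to 3729 units in BOUNTIFUL and 158 to 4492 units in Ws-0, and their summed signal was 14847 and 12325 units. RCA had less signal in BOUNTIFUL, 3587 units against 4492, and the others had more. A named probe set was found for 1 of 5 floral markers, 1 of 3 pollen markers and 0 of 3 seed markers. The floral gene UFO and the pollen gene ACT12 had signals of at most 6.26 units on either array, in the range of the controls. The root hair genes EXPA7 and EXPA18 had 17.5 and 26.1 units in BOUNTIFUL and 21.7 and 25.0 units in Ws-0. EXPA18 lay above the range of the controls on both arrays, and EXPA7 on the Ws-0 array only. The part of leaf composition in the PRA1 differences was not tested.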

How the data were processed

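The authors deposited intensity signals on a linear scale from Affymetrix ATH1 arrays, 1 for BOUNTIFUL and 1 for Ws-0, made with MAS5 per the submitters' processing notes, whose version the sources used here do not give. Both arrays had a mean of 100.0 units once the top and bottom 2% of signals were trimmed, so they had been scaled alike, and the main values use that scale.

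Gene names came from the platform's annotation of 2016 and the TAIR10.1 gene table, which also gave older names and gene order. The annotation assigned 13513 of the 22746 Arabidopsis probe sets to a single gene. The 64 control probe sets were left out. The pseudocount of 7.77 units was the 20th percentile of signals on both arrays, and the filter a mean signal of 39.88 units. No test was possible with 1 array per genotype.

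The PRA1 genes and the trafficking lists were chosen with earlier results of these data known. Of the genes in each list that passed the filter, the highest, the lowest and any at least 2-fold apart are named. Genes were matched to lists by symbol or synonym, and ARA12, ARL and BSH, whose symbols matched by letters only, were removed after the values were seen. Python 3.11.15, NumPy 2.4.6, pandas 2.3.3 and statsmodels 0.14.6 were used, and the calculation was tested on simulated data. No sequences are shown.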

Additional observations from a re-analysis of the deposited data

How the results depend on the processing

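Besides the deposited scale, 11 alternatives were computed, and those on hybridisation spikes were known from earlier results. No paired analysis was possible because a single array was made per genotype, and no array could be left out. A log2 ratio was taken as moved from a change of over 0.1, since there is no replicate spread. Median centring, quantile normalisation and loess moved none of the values below past that. Even so, PRA1.B1 changed sign, to 0.0006 with median centring and 0.02 with loess. The exocyst median also changed sign from -0.02, to 0.036 with median centring, 0.036 with quantile normalisation and 0.065 with loess. Leaving out probe sets of possible cross-hybridisation could not change these values, since none of the PRA1 or list probe sets used bears such a suffix. The alternative named for the brightest probe set changed nothing, so it repeats the deposited scale and is no check. With the newer and the older spikes set equal, which multiplies every BOUNTIFUL signal by 1 factor, the PRA1 median of 0.14 became 0.48 and 0.67, the count above 0 went from 3 to 6 and 6, the count at least 2-fold apart from 0 to 1 and 2, and the subfamily B median from 0.57 to 0.90 and 1.08. The list medians became 0.18 and 0.37 for Arf GTPases and coats, 0.31 and 0.49 for the exocyst, 0.37 and 0.56 for SNAREs and 0.075 and 0.25 for vacuolar sorting and ESCRT. Filters changed values as genes entered or left. With no filter the PRA1 median was 0.34 (-0.02 over all probe sets). Of 9 PRA1 genes 5 lay above 0, PRA1.G1 in the control range among them. The median was 0.12 for Arf GTPases and coats and -0.17 for vacuolar sorting and ESCRT. With the filter at the 75th percentile 3 PRA1 genes were left, 1 above 0, and PRA1.B1, at -0.058, gave their median and the subfamily B value. The median of all probe sets passing that filter was -0.055. The share of all probe sets above 0 was not computed for these filters. PRA1.B6 ran from 0.67, with the pseudocount at the 40th percentile, to 0.94 with no pseudocount and 1.34 with the older spikes. Signals under 21.9 units in BOUNTIFUL and 16.7 in Ws-0 cannot be told from background.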
